A study of Mus musculus with 6 samples.

Results

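The genes described here are 10 components and targets of bone morphogenetic protein (BMP) signalling: the ligand gene Bmp4, the receptor gene Bmpr1a, the SMAD genes Smad1, Smad9 and Smad6, the decoy receptor gene Bambi, and Id1, Id2, Id3 and Id4. They were given as a list of names and found on the arrays as the probes annotated with a RefSeq transcript of one of them, which gave 12 probes for 10 genes, against 55681 distinct probes in all. The cells were J1 mouse embryonic stem cells, an established line from the inner cell mass of strain 129S4/SvJae, adapted to gelatin and with no feeder cells named in the labels. All 6 samples were in serum replacement medium with 1000 U/ml LIF, a cytokine that sustains self-renewal. The 3 SC1 samples received 1 µM SC1 for 6 h, a small molecule (pluripotin) reported to inhibit ERK1 and RasGAP. The 3 DMSO samples, the controls, were also taken at 6 h. Total RNA was labelled with Cy3 and each sample was hybridised to 1 array, so the number of arrays limits the precision. The labels do not say that replicates were separate cultures, so the p-values cover only the variation among these samples, and that may be technical.

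BMP ligands bind paired type I and type II serine/threonine kinase receptors, which phosphorylate the receptor-regulated SMADs. These join SMAD4 and enter the nucleus, where the Id genes are among their best known direct targets. Id proteins are helix-loop-helix proteins without a DNA-binding region, and they hold E proteins and other basic helix-loop-helix factors away from DNA. In mouse embryonic stem cells grown with LIF, BMP4 and the Id genes are known for restraining neural differentiation, and ERK kinases can phosphorylate SMAD linkers and oppose SMAD activity.

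Values are log2 signals relative to the 75th percentile of the same array, so 0 is a signal equal to that percentile and each unit is a doubling. A probe's level is not comparable with that of another probe. That percentile was higher with DMSO (532.2 to 539.0 intensity units) than with SC1 (443.3 to 493.3). The 10 embryonic stem cell markers examined were well above background on all 6 arrays, and 3 rose and 3 fell. Here and below, a gene counted as higher or lower passed the test given in the next paragraph, as 38.3% of all genes did. Of 10 fibroblast (feeder) markers, Lum and Postn were not above background on any array, and the summed level of the list, in multiples of the 75th percentile, was 45.6 to 47.5 with DMSO and 43.9 to 49.0 with SC1 (3 higher, 1 lower). Without Vim, its brightest marker, it was 2.43 to 2.61 and 1.97 to 2.06. The same sum over 9 primitive endoderm markers was 14.1 to 15.4 with DMSO and 22.2 to 22.5 with SC1 (4 higher, 1 lower), and 2.15 to 2.24 and 2.02 to 2.16 without its brightest, Lama1. Over 6 neural markers it was 8.50 to 8.62 and 10.9 to 11.6 (2 higher, 3 lower), and without its brightest, Tubb3, 4.47 to 4.60 and 3.42 to 3.56. Over 7 mesoderm markers, of which Mixl1 was above background on no array, it was 11.4 to 12.5 and 12.8 to 13.2 (1 higher, 2 lower), and 1.28 to 1.35 and 1.36 to 1.41 without its brightest, Kdr. These sums add different probes, and the brightest sets most of each, except of the neural sum with DMSO. The part of these shifts in the results below was not tested. In bulk RNA, fewer cells of a type and less RNA per cell cannot be told apart.

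After 6 h of SC1, Id3, Bmp4, Id1 and Id4 were lower and Id2 was higher, while Bmpr1a, Smad1 and Smad6 did not pass the test. Id3 fell 10.2-fold, Bmp4 2.82-fold, Id1 1.82-fold and Id4 1.49-fold, and Id2 rose 1.45-fold. Smad9 and Bambi were not well above background on any array and were not tested. Of the 8 members tested, 5 passed a Benjamini-Hochberg adjusted p under 0.05 in limma over 25439 genes and intervals. Over all of these, 38.3% passed, 18.1% higher and 20.2% lower. Of the genes that passed, 47.3% rose. That share was 57.9% with normexp background correction under the same scaling, 51.3% with normexp and quantile normalization or with quantile normalization alone, and 45.0% with spike-in scaling. A change of at least 2-fold that passed was found for 4.16% of all genes, and for Id3 and Bmp4 among the members. The median log2 fold change of the 8 members was -0.26, against -0.0052 for all genes tested, and the median of its absolute size was 0.56 against 0.17. The groups did not overlap for 6 of the 8 members, against 52.2% of all genes. The members were chosen with earlier results of these data known, so these comparisons with all genes only describe the list.

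**Figure D1:**
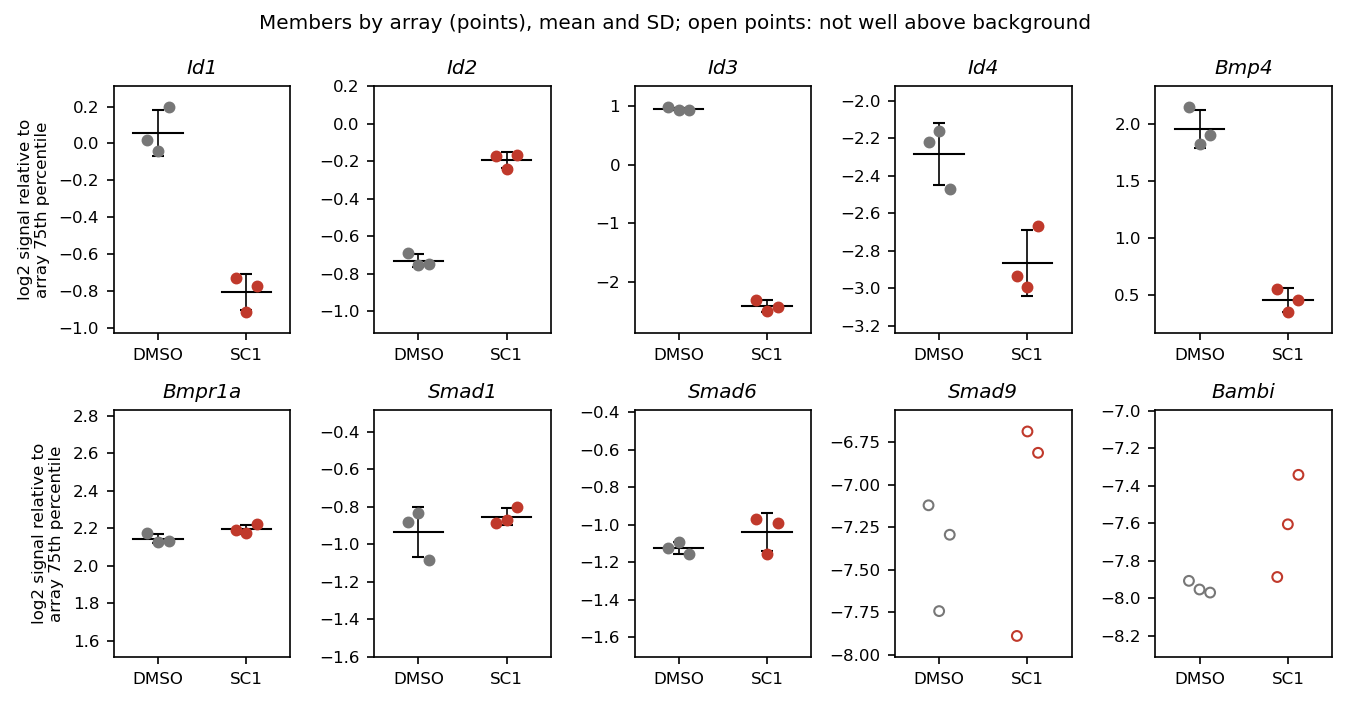
Log2 signal relative to the array's 75th percentile for each of the 10 members on the 3 DMSO and 3 SC1 arrays, with the mean and SD of each group; each panel has its own vertical range. Id3 lies between 0.93 and 0.97 with DMSO and between -2.49 and -2.29 with SC1. Id2 alone is higher with SC1 among members that passed, and the open points of Smad9 and Bambi are not well above background.

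Id3 responded most of the members. Its level was 0.97, 0.93 and 0.93 in the DMSO samples and -2.29, -2.49 and -2.42 in those given SC1. The groups were far apart, and the arrays within each differed by at most a small part of the gap. The log2 fold change was -3.34 (SE 0.0603, n = 3 per group, adjusted p = 4.01e-06), the 13th largest fall among 25439 genes. With normexp and 75th percentile scaling it was -2.73. Before scaling, the signal was 1013 to 1055 intensity units with DMSO and 81.4 to 101 with SC1, still well above background on every array.

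Id1, the member most often used as a readout of BMP signalling, fell by a smaller amount. It was at 0.018, -0.041 and 0.20 with DMSO and at -0.73, -0.91 and -0.77 with SC1. Every SC1 array lay below every DMSO array, and the DMSO arrays were the more spread. The log2 fold change was -0.86 (SE 0.0822, adjusted p = 0.000642).

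Id2 moved the opposite way. Its values were -0.69, -0.75 and -0.75 with DMSO and -0.17, -0.24 and -0.16 with SC1. All 3 SC1 arrays were higher than all 3 DMSO arrays, and the log2 fold change came to 0.54 (SE 0.0437, adjusted p = 0.000345). The unscaled signal was also higher with SC1, at 388 to 437 intensity units against 316 to 334.

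Id4, which is known for roles in neural precursors and spermatogonial stem cells, was also lower. Its level was -2.22, -2.16 and -2.47 with DMSO and -2.94, -3.00 and -2.67 with SC1. The groups were separate, with the nearest arrays at -2.47 and -2.67. The log2 fold change was -0.58 (SE 0.119, adjusted p = 0.0117). Blocking on slide position gave an adjusted p of 0.0618, and with normexp background correction and 75th percentile scaling the log2 fold change was -0.28.

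The differences between the changes of the 4 Id genes were compared within arrays over all 6 pairs. The smallest p that 3 arrays against 3 can give in an exact permutation test is 0.1, and adjustment cannot lower it, so no pair could pass 0.05. The pairs at 0.1 had 0.12 after adjustment over the 6 pairs. Id2 and Id3 differed most: the log2 fold change of Id2 exceeded that of Id3 by 3.88 (exact permutation test, two-sided, p = 0.1). The difference between Id2 and Id3 on an array lay between -1.68 and -1.66 with DMSO and between 2.12 and 2.25 with SC1. Id1 exceeded Id3 by 2.48 and fell short of Id2 by 1.40, and Id2 exceeded Id4 by 1.12, each at the exact permutation minimum of p = 0.1. Id3 minus Id4 was -2.76 (exact permutation p = 0.1). Only Id1 and Id4 overlapped, with a difference of -0.28 (exact permutation p = 0.2), so the order of these neighbours did not exceed the spread.

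The promoters of Id3, Id2 and Id4 are shown because their fold changes were -3.34, 0.54 and -0.58 on the log2 scale, and that of Bmp4 because it fell as well. Each is the 250 bases before the RefSeq start site on GRCm38.p6, 5′ to 3′ on the gene's strand. RefSeq promoters were matched for 8 of the 10 members, not for Id1 and Bambi. Capitals mark GGCGCC, a GC-rich string that SMADs of the BMP branch bind and that is its own reverse complement. They also mark GTCTG, which contains the letters of the SMAD box, on either strand, where the other strand reads CAGAC. No marked stretches overlap. The windows are chr4:136143572-136143821 (plus strand) for Id3, chr12:25096093-25096342 (minus strand) for Id2, chr13:48260866-48261115 (plus strand) for Id4 and chr14:46390670-46390919 (minus strand) for Bmp4.
Id3: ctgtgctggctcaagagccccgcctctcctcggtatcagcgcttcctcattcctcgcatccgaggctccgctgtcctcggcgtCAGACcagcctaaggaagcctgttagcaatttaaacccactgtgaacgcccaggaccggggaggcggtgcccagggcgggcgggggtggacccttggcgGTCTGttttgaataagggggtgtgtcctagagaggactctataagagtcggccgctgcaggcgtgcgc
Id2: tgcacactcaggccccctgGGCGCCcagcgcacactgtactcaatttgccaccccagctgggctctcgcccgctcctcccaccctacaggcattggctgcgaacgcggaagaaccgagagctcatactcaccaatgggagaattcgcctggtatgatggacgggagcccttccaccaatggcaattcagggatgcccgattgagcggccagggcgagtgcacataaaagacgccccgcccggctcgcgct
Id4: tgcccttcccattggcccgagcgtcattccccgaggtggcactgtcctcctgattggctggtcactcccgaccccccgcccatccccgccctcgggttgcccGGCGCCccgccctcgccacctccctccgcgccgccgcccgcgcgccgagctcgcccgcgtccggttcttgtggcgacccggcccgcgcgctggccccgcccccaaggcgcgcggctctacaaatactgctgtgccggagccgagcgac
Bmp4: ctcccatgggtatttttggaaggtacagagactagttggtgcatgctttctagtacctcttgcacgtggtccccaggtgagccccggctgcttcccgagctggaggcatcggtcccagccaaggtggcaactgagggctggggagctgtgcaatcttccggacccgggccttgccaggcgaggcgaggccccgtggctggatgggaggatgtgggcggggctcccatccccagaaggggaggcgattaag

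The Id3 window holds GTCTG on both strands, as CAGAC from 167 to 163 bases and as GTCTG from 68 to 64 bases before the start. It also holds TATAA, which 22.8% of windows hold on either strand, from 29 to 25 bases before the start. The shorter SMAD box GTCT, or AGAC on the other strand, was not searched for. AGAC also occurs, unmarked, in the Id2 and Bmp4 windows. Of 32851 promoter windows, 42.2% hold GTCTG on either strand and 11.7% hold it at least 2 times. The Id2 window has no GTCTG, 1 GGCGCC from 231 to 226 bases before the start and 3 matches to CCAAT, which 33.9% of windows hold on either strand. Id4 also has 1 GGCGCC, from 148 to 143 bases before the start, and 2 matches to CCAAT. The share of windows with GGCGCC is 9.59%. The Bmp4 window has neither of the marked strings, and has CCGGAA, the core of ETS sites, on the opposite strand from 95 to 90 bases before the start, which 12.03% of windows hold on either strand. The G and C content was 62.8% for Id3 and for Id2, 75.6% for Id4 and 63.2% for Bmp4, against a median of 52.4% over all windows. A match describes letters in this window and does not show a bound site.

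Bmp4, the ligand of the group, had the second largest fall. Its level was 2.14, 1.82 and 1.90 with DMSO and 0.56, 0.35 and 0.46 with SC1. All SC1 arrays were below all DMSO arrays, and the log2 fold change was -1.50 (SE 0.0991, adjusted p = 0.000168). Bmp4 has a further probe, which was not well above background on any array, at 2.24 to 2.51 intensity units, and gives no level.

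The tested receptor and SMAD members did not pass. Bmpr1a, which encodes a type I BMP receptor, was at 2.17, 2.13 and 2.13 with DMSO and at 2.19, 2.18 and 2.22 with SC1. The SC1 arrays were all slightly higher, but the log2 fold change of 0.051 did not pass (95% confidence interval -0.045 to 0.15, adjusted p = 0.357). Smad1, a receptor-regulated SMAD, was at -0.88, -0.83 and -1.09 with DMSO and -0.89, -0.87 and -0.80 with SC1, and the groups overlapped. Its log2 fold change was 0.081 (95% confidence interval -0.10 to 0.27, adjusted p = 0.447) and -0.084 on a dimmer probe (95% confidence interval -0.26 to 0.096), so the probes give no shared direction.

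Smad6, an inhibitory SMAD that is itself induced by BMP, was at -1.13, -1.10 and -1.16 with DMSO and -0.97, -1.16 and -0.99 with SC1. The groups overlapped through SC1 replicate 2, and the log2 fold change was 0.088 (95% confidence interval -0.062 to 0.24, adjusted p = 0.312). These intervals leave out a change of 1.5-fold in either direction for all 3 genes. Smad9, the least abundant of the receptor-regulated SMADs in most tissues, gave 2.08 to 4.46 intensity units, and Bambi, a receptor-like protein that lacks a kinase, 2.08 to 2.73, neither well above background on any array.

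**Figure D2:**
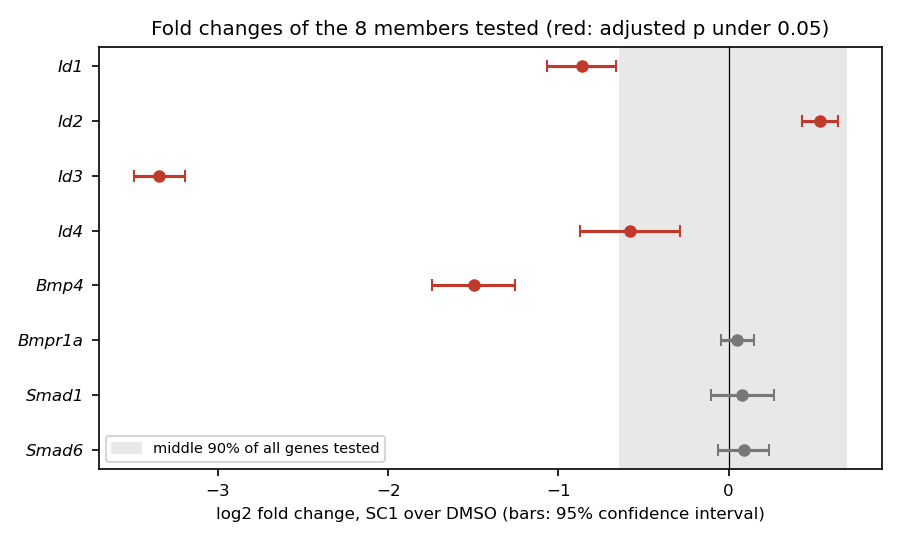
Log2 fold change of the 8 members tested, SC1 over DMSO, with 95% confidence intervals from limma; the grey band is the middle 90% of all genes tested, from -0.64 to 0.69. Id3, Bmp4 and Id1 lie outside the band, Id2 and Id4 inside it although they passed the test, and the intervals of Bmpr1a, Smad1 and Smad6 span 0.

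Close relatives of 3 members were set beside them, a choice made after the values were seen. Smad7, the other inhibitory SMAD, was at 2.45, 2.42 and 2.42 with DMSO and 0.53, 0.48 and 0.58 with SC1. That is a fall on the log2 scale, -1.90 with SE 0.0430 (adjusted p = 7.25e-06), where Smad6 did not pass. The fold change of Smad6 exceeded that of Smad7 by 1.99 on the log2 scale (exact permutation p = 0.1, the smallest possible, and 0.15 adjusted over the 3 pairs). Bmpr1b, the other BMP type I receptor gene of this subgroup, was at -5.29, -5.75 and -5.43 with DMSO and -3.57, -3.57 and -3.65 with SC1 (adjusted p = 0.000143). It was well above background on only 2 of 3 DMSO arrays, so it passed the filter through SC1 alone, where it was high. Its p therefore adds no support of its own. Its fitted log2 fold change of 1.90 was 0.46 with normexp and quantile normalization. A further Bmpr1b probe was above background on no array. Because the tested probe was near background with DMSO, the difference from Bmpr1a, the remaining pair of the 3, is not given. Smad5, the relative of Smad1, rose by 0.22 on its brightest probe (adjusted p = 0.00830) and had -0.17 on another. Its call was lost with spike-in scaling (adjusted p = 0.510), with the mean of probes (0.028, adjusted p = 0.656) and with slide position as a block (adjusted p = 0.0631). The change of Smad1 and of Smad5 did not differ beyond the spread (difference -0.14, exact permutation p = 0.3).

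On their brightest probes, Smad4, Bmpr2 and Acvr1 did not pass. Smad4, the shared partner of the receptor-regulated SMADs, gave 0.034 as log2 fold change for the brightest probe (adjusted p = 0.640) and -0.13 for another. Bmpr2, the BMP type II receptor gene, had 0.044 (adjusted p = 0.592). Acvr1, a further type I receptor gene, had -0.11 on its brightest probe (adjusted p = 0.0922) and -0.22 on another, which passed when every probe was tested (adjusted p = 0.0301), where 36.3% of all probes passed. Acvr1 also passed with the mean of probes (-0.16, adjusted p = 0.0176) and with normexp and 75th percentile scaling (-0.15, adjusted p = 0.0457).

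Among 14 further BMP and GDF ligand genes, 7 were tested, and 2 rose, 2 fell and 3 did not pass. For this list and the receptors that follow, the share that passed over all genes was 38.3%. Bmp7 rose by 0.42 and Gdf3, a ligand gene of pluripotent cells, by 0.31 on its brightest probe and 0.81 on another. Bmp8b and Bmp8a, close copies in the mouse, had log2 fold changes of -0.65 and -0.25. Bmp8b was at -0.20 with normexp and 75th percentile scaling and -0.37 with slide position as a block (adjusted p = 0.0498), where Bmp8a did not pass (adjusted p = 0.0794). With spike-in scaling the adjusted p was 0.0703 for Bmp7, 0.266 for Gdf3 and 0.216 for Bmp8a. The median of the list was -0.20. Of 10 receptors and co-receptors, 9 were tested, with 2 higher, 1 lower and 6 not passing, and a median of 0.015. Besides Bmpr1b, which passed the filter through SC1 alone, the co-receptor gene Rgma rose by 0.33 (adjusted p = 0.00985, and 0.212 with spike-in scaling). Hjv, the co-receptor hemojuvelin, was lower (adjusted p = 0.0424) but above background on 2 of 3 SC1 arrays, so DMSO alone passed it through the filter. Its adjusted p was 0.0551 to 0.0926 when any 1 array was left out, so no fold is given.

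Secreted antagonists and modulators bind or process BMPs and related ligands outside the cell. They gave 6 higher, 1 lower and 6 not passing among 13 tested of 18, with a median of 0.22. Of all genes, 38.3% passed. Fst, which encodes follistatin, an inhibitor of activin and some BMPs, was at -2.04, -1.84 and -1.82 with DMSO and -0.32, -0.061 and -0.11 with SC1. All SC1 arrays were higher, and Fst rose by 1.74 (SE 0.0934, adjusted p = 8.27e-05). Nbl1, a gene of the DAN antagonist family, rose by 0.75, Chrdl2, a chordin-like gene, by 0.80 and Fstl3, a follistatin relative, by 0.52. Chrdl2 was dim, and its value was 0.13 with normexp and quantile normalization. Nog, the gene of the BMP antagonist noggin named after its value was seen, had 0.22 (adjusted p = 0.429) and did not pass.

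All 19 further SMADs and intracellular regulators were tested, with 5 higher, 3 lower and 11 not passing, and a median of 0.075. Over all genes, 38.3% passed. Zfp423, a zinc finger gene whose product joins SMADs at BMP targets, fell, with a log2 value of -1.72 (SE 0.0524, adjusted p = 1.47e-05), and its other probes gave -1.98 and -1.48. Tob1, which encodes a repressor of SMAD activity and of proliferation, rose 2.14-fold (SE of log2 0.0474, adjusted p = 4.36e-05). Zeb2, a SMAD-binding repressor gene, rose by 0.68.

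Of 13 genes often induced by BMP in other cells 10 were tested, and 3 rose, 1 was lower and 6 did not pass, against 38.3% of all genes passing. The median was 0.017. Gata2 and Gata3, transcription factor genes of trophoblast and blood, rose by 1.31 and 0.96, and by 0.45 and 0.29 with normexp and quantile normalization. Both were dim, with Gata2 at 16.0 to 22.7 and Gata3 at 22.5 to 23.7 intensity units with DMSO. Tbx3, a factor of embryonic stem cells, rose by 0.44 (adjusted p = 0.0594 with spike-in scaling). Cdx2, a trophoblast factor, was above background on no SC1 array and passed the filter through DMSO alone. With its undetected arrays set at the lowest signal called above background, or at their own where higher, it was at least 1.43-fold lower (adjusted p of the fitted value 0.0459). The direction turned to 0.018 with normexp and 75th percentile scaling, and the call was lost with normexp and quantile normalization (adjusted p = 0.0656), no filter (0.0866), slide position as a block (0.299) and in 4 of 6 fits that left out 1 array (0.0660 to 0.132). Dusp9, a phosphatase gene induced by BMP4 in these cells, named after its value was seen, had -0.10 (adjusted p = 0.126).

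Of 23 Id partners and other basic helix-loop-helix genes 17 were tested, and 6 were higher, 9 were lower and 2 did not pass, with a median of -0.12. The share that passed over all genes was 38.3%, and the list was chosen with earlier results known. The lower genes include Mesp1, above background on no SC1 array, which passed the filter through DMSO alone. Among the E proteins, the direct partners of Id proteins, Tcf4 had a log2 fold change of -0.29 (adjusted p = 0.00197), Tcf3 -0.12 (adjusted p = 0.0446) and Tcf12 0.012 (adjusted p = 0.913). These E proteins were named after their values were seen. Neurog3, a factor of pancreatic endocrine precursors, was at 0.82, 0.67 and 0.90 with DMSO and 3.72, 3.59 and 3.74 with SC1. It rose by 2.89 (SE 0.0773, adjusted p = 1.12e-05), with no overlap of the groups. Tal1, a blood factor, rose by 2.11, Ascl2 rose by 0.62, and Mesp2, of the presomitic mesoderm, had -1.23. With normexp and quantile normalization Tal1 was at 1.22 and Mesp2 at -0.60.

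**Figure D3:**
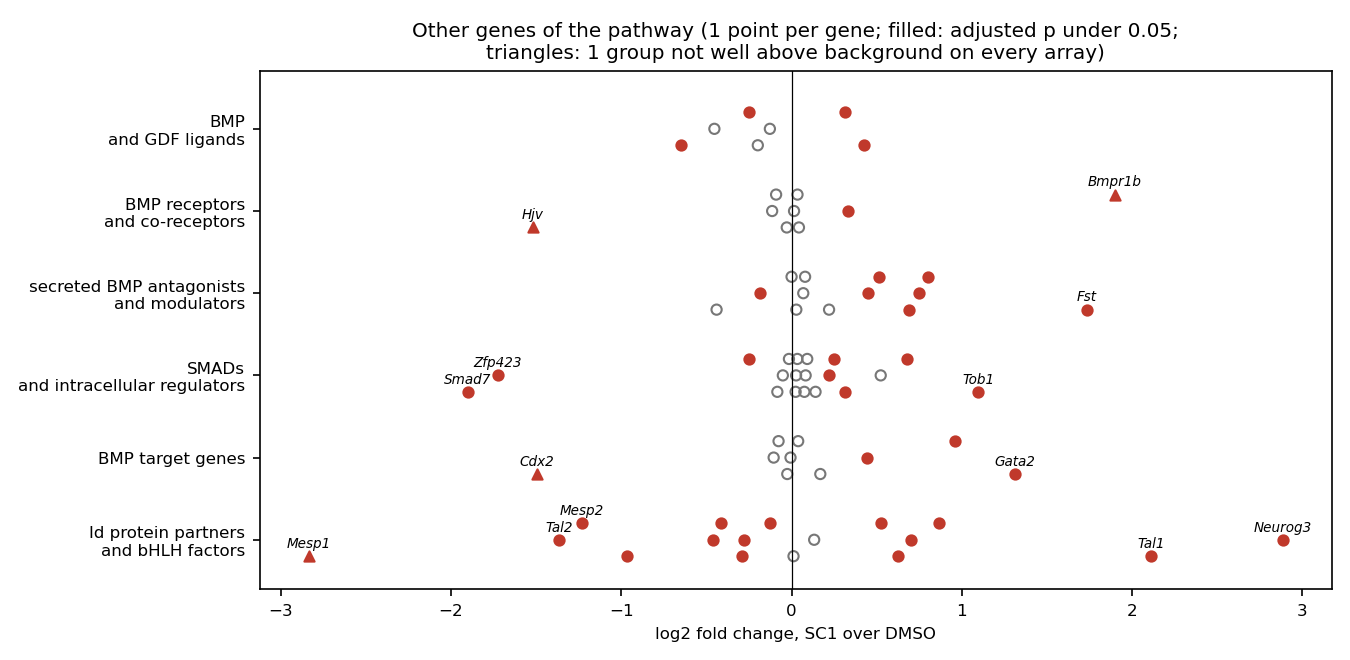
Log2 fold change, SC1 over DMSO, of the other pathway genes tested, 1 point per gene in 6 lists; filled points passed an adjusted p under 0.05, and triangles are fitted values of genes not well above background on every array of 1 group. Smad7 and Zfp423 are the lowest points among SMADs and regulators, Fst the highest among antagonists, and most receptor points sit near 0.

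Genes with the most similar profile over the 6 arrays were found by the root mean square difference of log2 values centred on the DMSO mean. For Id3 these were Etv1, an ETS factor gene (difference 0.055, log2 fold change -3.33), Gbx2, a homeobox gene (0.077, -3.33), and the transcript ENSMUST00000028883 (0.083, -3.40). For Id1 they were the transcript ENSMUST00000065124 (difference 0.044, log2 fold change -0.83), Nxn, a redox protein gene (0.059, -0.87), and Phc1, a Polycomb gene (0.063, -0.91). Such likeness over 6 arrays in 2 groups rests mainly on an equal fold change. Dusp6 and Egr1, readouts of ERK signalling, had log2 fold changes of -4.99 and -3.53.

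The arrays shared 1 slide, with the 3 DMSO arrays and SC1 replicate 1 at its first position index and SC1 replicates 2 and 3 at the second, so a within-position value exists at the first index alone. That value sets 1 SC1 array against the DMSO mean, and its spread, taken from the DMSO arrays and from SC1 replicates 2 and 3, is assumed to hold for that array. There the log2 fold change was -3.24 for Id3, -1.40 for Bmp4, -0.79 for Id1 and 0.56 for Id2, each with an adjusted p under 0.05 (0.000229, 0.00419, 0.0120 and 0.00683), and -0.65 for Id4.

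**Figure D4:**
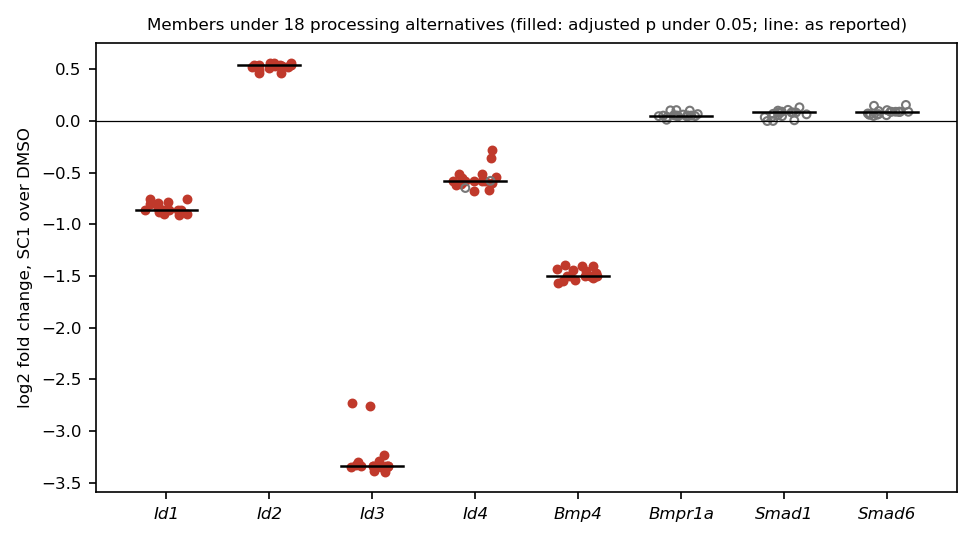
Log2 fold change of each tested member as reported (black line) and under 18 processing alternatives (points, spread sideways for legibility; filled points passed an adjusted p under 0.05). Id3, Bmp4, Id1 and Id2 stay filled throughout, from -3.40 to -2.73 for Id3 and from 0.46 to 0.56 for Id2, while Id4 has 2 open points.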

How the data were processed

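Total RNA from 6 samples went onto one-colour (Cy3) Agilent arrays, per the labels. The submitters' processing notes name Feature Extraction 10.7. The deposited files give an intensity per spot: a background-corrected signal, the raw medians of spot and local background, and other columns of flags. A deposited table holds log2 intensities, by a method not given in the sources used here; each array had a median of 5.18, and it stayed within a few hundredths of quantile-normalized signals.

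Log2 signals, without outlier spots, were averaged per probe, and each array's 75th percentile was subtracted. A probe was kept (35321 were) when all 3 arrays of either group had it well above background, with the brightest probe per gene (25439 genes and intervals). SC1 and DMSO were compared with limma 3.58.1 in R 4.3.3 (lmFit, eBayes, two-sided, Benjamini-Hochberg over all genes, threshold 0.05), without a replicate block. The RefSeq table (GRCm38.p6) named 27235 probes; the array design uses mm9. Named genes were the members, Smad4, Smad5, Smad7, Bmpr2, Acvr1, Dusp6, Egr1, up to 4 of each list with the smallest p that passed, and the 3 nearest profiles of Id1 and Id3. Members and lists were chosen with earlier results of these data known.

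Same-numbered replicates did not deviate together (r from -0.036 to -0.013), so they were not treated as pairs. The fit was tested on simulated data of 25439 genes: at 2-fold it recovered 36 of 50 genes, at 1.5-fold 27 of 50, and it made 9 false calls. Only 50 genes were changed at each fold size, with independent noise and no slide position effect. In the data 38.3% of genes passed, so these recoveries and false calls need not hold there. Alternatives covered scaling, background (normexp, offset 50, on median signals because the files hold no mean signal), filter, probe rule, variance model, blocks and leaving out each array. Figures used Python 3.11.15 and matplotlib 3.10.9.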

Additional observations from a re-analysis of the deposited data

How the results depend on the processing

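Id1, Id2, Id3, Bmp4, Bmpr1a and Smad6 kept their direction and their side of the threshold under all 18 alternatives, and 4 or 5 members passed under each. These genes had 1 probe each above background. The alternatives of filter, probe rule and variance model and the replicate block could therefore change only their call, not their fold change. With the replicate number as a block (replicate block) 7910 genes passed and the adjusted p of Id4 was 0.0533; Id4 also missed the threshold with the slide position as a block. Over all genes, 5086 passed with spike-in scaling and 5545 with the slide position as a block, against 9751, and 7744 to 8385 when 1 array was left out. Values near 0 turned sign: Smad1 to -0.00067 with normexp and quantile normalization and -0.0014 with the mean of probes, Smad4 to -0.0063 with spike-in scaling and -0.050 with the mean of probes, and Bmpr2 to -0.0065 without SC1 replicate 3 (-0.0065 to 0.081 over the fits that left out 1 array). Cdx2 turned to 0.018 with normexp and 75th percentile scaling. The cause was not tested. Of the 75 pathway list genes tested 41 passed, and 30 to 46 over the alternatives, where 38.3% of all genes passed in the reported fit. The 46 came with every probe tested, where a gene counted if any of its probes passed. With spike-in scaling the lists had 30 and all genes 5086 of 25439. Of 519 values for 29 named genes that are not members, with Dusp6 and Egr1 among them, 488 kept direction and call. Most of these genes were named for a small p in these data, which favours a kept call. Signal near background limits Smad9, Bambi, Cdx2, Hjv and Bmpr1b, and the size of the changes of Gata2, Gata3 and Chrdl2.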
